A study of Bos grunniens with 18 samples.

Results

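The genes of the Desert hedgehog pathway were examined in the testis of yaks of 3 ages. The pathway was taken as 8 gene symbols, which were looked up by name in the gene table: the ligand DHH, the receptors PTCH1 and SMO, the antagonist HHIP, the inhibitor SUFU and the transcription factors GLI1, GLI2 and GLI3. They stand on 9 identifiers of the 22183 genes in the table. GLI2 stands on 2 identifiers. One of these (ENSBTAG00000051422) held 0 to 2 counts per library and did not pass the filter on low counts, so GLI2 below is ENSBTAG00000011682. The other 7 symbols are DHH (ENSBTAG00000000124), PTCH1 (ENSBTAG00000009903), SMO (ENSBTAG00000013287), HHIP (ENSBTAG00000016071), SUFU (ENSBTAG00000021068), GLI1 (ENSBTAG00000006631) and GLI3 (ENSBTAG00000010671).

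Hedgehog proteins are secreted signals that are bound by Patched receptors on the receiving cell. Unbound Patched holds down the membrane protein Smoothened, and binding of the ligand releases it, which at the primary cilium turns GLI transcription factors from repressors into activators. In the mammalian testis DHH is made by Sertoli cells, the supporting cells inside the seminiferous tubule, and is received outside it by Leydig precursors and peritubular cells, where it is known for its part in Leydig cell differentiation and in forming the tubule wall.

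The samples are whole testis tissue of healthy male yaks (Bos grunniens), taken at castration. There were 3 animals aged 6 months, 3 aged 18 months and 3 aged 4 years, with 1 gene library per animal. A further label names the life stages in another order (it gives the 4-year samples the youngest stage), so the groups follow the titles and the stated ages. Replicate numbers name different animals, and no label pairs them across ages. Gene libraries held 22950600 to 33123900 estimated counts, and 16742 genes passed the filter and were tested. Testis markers were present at every age, and no tested marker of any of the 10 cell-type lists used was at 0 in all libraries of an age. Levels below are CPM (counts per 1000000 counts of the library, after scaling between libraries), or the deposited FPKM, which also divides by transcript length and is used wherever 2 genes are set side by side.

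SMO, the signal-transducing membrane protein, had the highest FPKM of the 8 genes at 6 months, at 33.1 ± 2.74 (SD, n = 3). DHH (9.62 ± 2.25) and PTCH1 (8.82 ± 1.01) followed with overlapping libraries. GLI1, GLI3, SUFU and HHIP lay between 1.78 and 2.41 FPKM on average, each overlapping its neighbour in the order, and GLI2 was lowest at 0.384 ± 0.138. At 18 months every neighbour in the order overlapped the next, from SMO at 7.92 ± 4.75 FPKM down to GLI2 at 0.286 ± 0.157. In the 4-year libraries SMO was still highest, at 3.21 ± 0.888 FPKM. PTCH1 (2.02 ± 0.257) and DHH (1.94 ± 0.403) again overlapped, and GLI2 was again lowest, at 0.140 ± 0.0135. The FPKM range that the 8 genes spanned was thus narrower at 4 years, with SMO and PTCH1 closer to each other than at 6 months. The other hedgehog ligands were near absent: SHH was listed at 0 to 7 estimated counts per library and IHH at 1 to 27, and neither passed the filter.

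**Figure D1:**
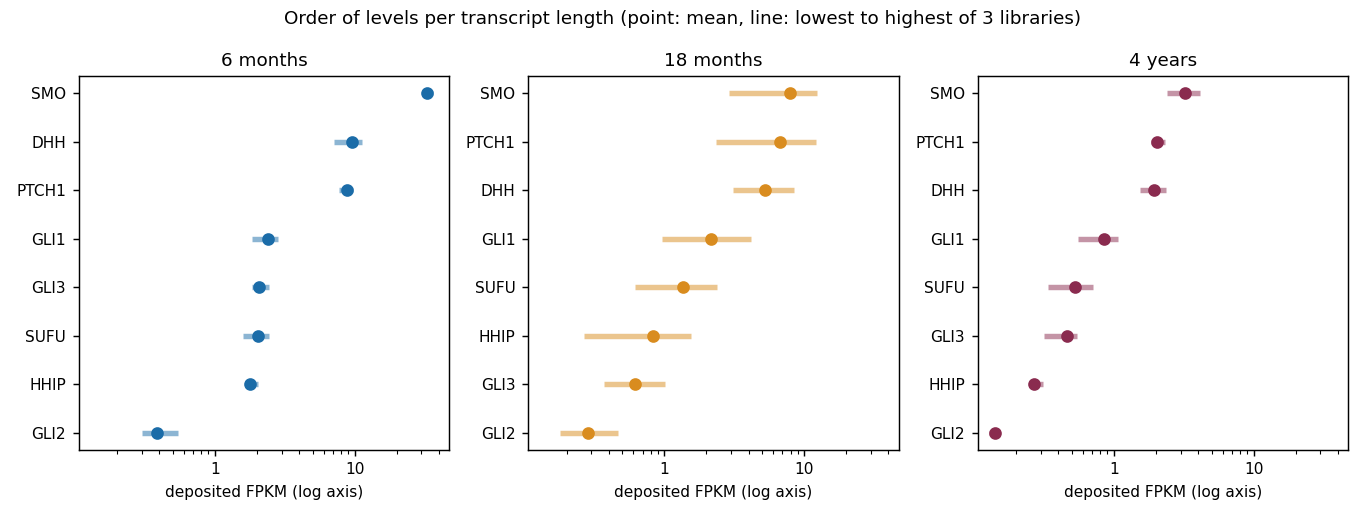
Deposited FPKM (log axis) of the 8 genes at each age, ordered by mean. Points are means of 3 libraries and lines run from the lowest to the highest library. SMO leads and GLI2 is last at every age, and the lines are longest at 18 months.

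All 8 genes were lower at 4 years than at 6 months. The falls ran from 3.47-fold for GLI2 to 13.3-fold for SMO, and for every gene the 3 older libraries lay below the 3 younger ones. In this comparison 37.2% of all tested genes were called lower at an adjusted p under 0.05, and 42% were lower with no overlap of the groups. The median log2 change was -2.43 over the 8 genes and -0.06 over all tested genes. These are bulk samples, and CPM is a share of the library. Fewer cells of a type, less RNA per cell and more RNA from other cells therefore cannot be told apart. All 8 falls passed under each of the 18 alternative settings and left-out libraries.

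At 18 months 5 of the 8 genes were lower than at 6 months: SMO, GLI3, HHIP, SUFU and DHH. PTCH1, GLI1 and GLI2 did not pass, and their libraries overlapped those of 6-month animals. In this comparison 27.1% of all tested genes were called lower, and 31.8% were lower without overlap. The median log2 change was -1.23 over the 8 genes against 0.02 over all tested genes. The count depended on the libraries used. Without replicate 2 of the 18-month group all 8 genes passed (32.2% of all genes were then lower), and 3 passed (DHH, SMO and GLI3) without replicate 3 of that group or without any 1 of the 6-month libraries. With library size alone as the scaling, the median of all genes moved to 0.43, SMO and GLI3 still passed, 15.6% of genes were called lower, and 72.6% of all calls were higher instead of 54.7%.

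Between 18 months and 4 years none of the 8 genes passed in edgeR, where 1 of 16742 genes was called lower (0.00597%). At an unadjusted p under 0.05 in edgeR, 6 of the 8 were lower, all but GLI2 and GLI3, beside 16% of all genes tested, and adjusted p ran from 0.174 to 0.444. By CPM, DHH, PTCH1, GLI1 and GLI2 were lower without overlap, against 13.6% of all genes. By FPKM the GLI1 libraries of these ages overlapped. DESeq2 called 942 genes, of which 742 were lower (4.43% of those tested), and 2 of the 8, PTCH1 (adjusted p = 0.0267) and DHH (adjusted p = 0.0466). Without replicate 1 of the 18-month group, edgeR called 6 of the 8 lower (all but GLI2 and GLI3), beside 19.8% of all genes. The 3 comparisons share libraries and are not independent of each other.

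**Figure D2:**
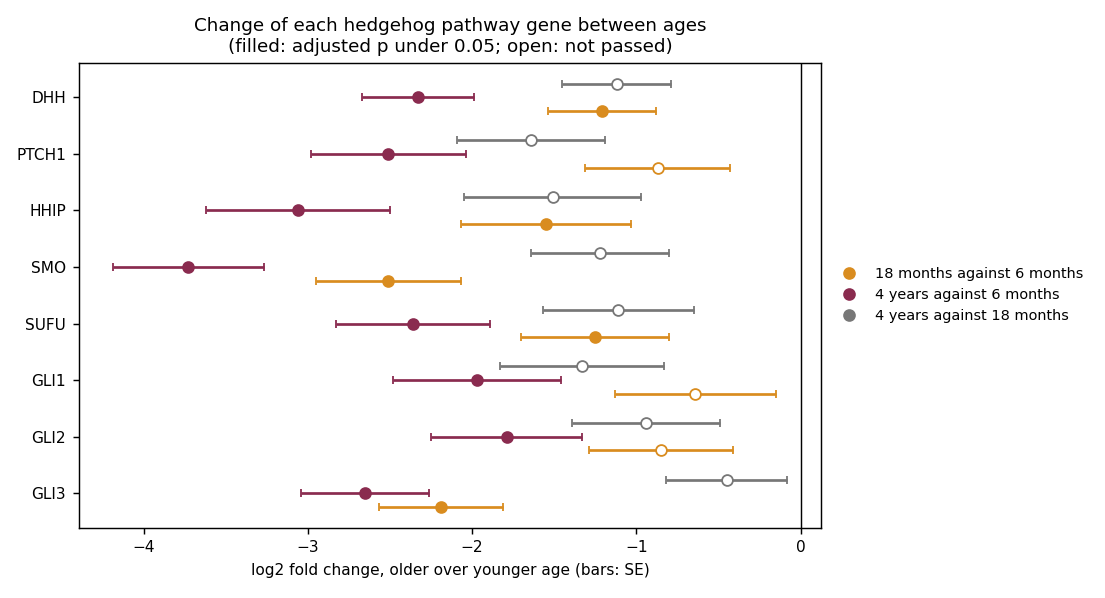
Log2 fold change (older over younger age) of each of the 8 genes with its SE, in the 3 comparisons of ages. Filled points have an adjusted p under 0.05 in edgeR. All points lie left of 0, the 8 for 4 years against 6 months are filled, and the 8 for 4 years against 18 months are open.

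DHH, the ligand of the pathway in the testis, stood at 33.9, 48.2 and 57.0 CPM in the 6-month libraries. It was at 14.3, 30.0 and 15.7 CPM at 18 months and at 9.05, 7.64 and 11.0 CPM at 4 years. By CPM the 3 ages did not overlap, and DHH was the only one of the 8 genes for which this held at both steps. By FPKM 18-month replicate 2 (8.476) lay above 6-month replicate 1 (7.075), so these 2 ages overlapped. The log2 change was -1.21 ± 0.33 (SE) at 18 months (adjusted p = 0.0111) and -2.33 ± 0.34 at 4 years (adjusted p = 0.000331), each against 6 months. From 18 months to 4 years it was -1.12 ± 0.33 (adjusted p = 0.174).

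PTCH1, the receptor of the ligand and itself a known target of GLI factors, stood at 104.6, 94.1 and 86.9 CPM at 6 months. At 18 months it was at 19.8, 92.4 and 44.4 CPM, and at 4 years at 16.2, 15.7 and 18.3 CPM. Replicate 2 of the 18-month animals sat among the 6-month libraries, replicate 1 was just above the 4-year ones, and the 4-year libraries were tightly grouped. PTCH1 fell by 2.51 ± 0.47 on the log2 scale from 6 months to 4 years (adjusted p = 0.0012). Its change at 18 months, -0.87 ± 0.44, did not pass (adjusted p = 0.12). By FPKM the same 18-month library was the highest of all 9 for PTCH1, at 12.1 against 7.75 to 9.76 at 6 months, so its place among the 6-month libraries depended on the scale.

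SMO, which carries the signal across the membrane once Patched lets go, had the largest change of the 8 genes in both comparisons with 6 months. It stood at 137, 142 and 168 CPM at 6 months, at 10.2, 39.7 and 28.2 CPM at 18 months and at 8.71, 11.0 and 13.9 CPM at 4 years. The 6-month libraries were far above all others, while replicate 1 of the 18-month group lay inside the 4-year range. The log2 change from 6 months was -2.51 ± 0.44 at 18 months (adjusted p = 0.00126) and -3.73 ± 0.46 at 4 years (adjusted p = 0.000156).

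HHIP, a membrane-bound decoy that binds hedgehog ligands and is also a known target of the pathway, was a low-count gene with 20 to 193 estimated counts per library. Its CPM was 7.10, 8.37 and 7.22 at 6 months, 0.895, 4.72 and 2.11 at 18 months and 0.851, 1.06 and 0.792 at 4 years. The 6-month libraries agreed closely and lay above all others, and the 18-month ones were spread over most of the distance to the 4-year level. HHIP fell by 3.06 ± 0.56 on the log2 scale by 4 years (adjusted p = 0.00108), second in size to SMO. The log2 change at 18 months was -1.55 ± 0.52 (adjusted p = 0.029), and 6 of 18 alternatives lost that call.

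SUFU, which holds GLI proteins in the cytoplasm, stood at 10.4, 12.2 and 9.005 CPM at 6 months. The 18-month libraries had 2.62, 7.18 and 3.50 CPM and the 4-year ones 1.74, 3.13 and 1.27 CPM. By CPM neither older group reached the 6-month range, and the older groups overlapped each other. By FPKM 18-month replicate 2 (2.362) lay inside the 6-month range of 1.588 to 2.445. Its log2 change was -1.25 ± 0.45 at 18 months (adjusted p = 0.0395), a call lost in 9 of 18 alternatives, and -2.36 ± 0.47 at 4 years (adjusted p = 0.00178).

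GLI1, the activator whose own transcription is a standard readout of hedgehog signalling, stood at 12.6, 13.7 and 9.74 CPM at 6 months. At 18 months it was at 3.75, 14.3 and 5.06 CPM and at 4 years at 3.44, 2.09 and 3.68 CPM. Replicate 2 of the 18-month animals had the highest GLI1 level of all 9 libraries, and the other 18-month libraries were above the 4-year range by CPM. GLI1 fell by 1.97 ± 0.51 on the log2 scale by 4 years (adjusted p = 0.00654). The change at 18 months was -0.64 ± 0.49 (adjusted p = 0.278), and it became -1.33 (adjusted p = 0.00535) without replicate 2 of that group.

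GLI2, the main activator at the start of a response, had the lowest mean FPKM of the 8 at each age. It had 21 to 88 estimated counts per library. It had 2.15, 3.82 and 2.33 CPM at 6 months, 1.03, 2.43 and 1.13 at 18 months and 0.817, 0.737 and 0.831 at 4 years. The 4-year libraries lay below all others, and 1 of the 18-month libraries reached into the 6-month range. Its log2 change was -0.85 ± 0.44 at 18 months (adjusted p = 0.123) and -1.79 ± 0.46 at 4 years (adjusted p = 0.00627), the smallest of the 8 at 4 years.

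GLI3, which acts mainly as a repressor when no ligand is present, stood at 26.7, 19.7 and 22.2 CPM at 6 months. At 18 months it was at 3.91, 8.04 and 3.05 CPM and at 4 years at 4.19, 2.80 and 3.96 CPM. Both older groups lay far below the 6-month animals and overlapped each other. The log2 change was -2.19 ± 0.38 at 18 months (adjusted p = 0.00128) and -2.65 ± 0.39 at 4 years (adjusted p = 0.000343). GLI3 had the smallest change of the 8 from 18 months to 4 years, -0.45 ± 0.37 (adjusted p = 0.444), and this was 0.07 without replicate 2 of the 18-month group.

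**Figure D3:**
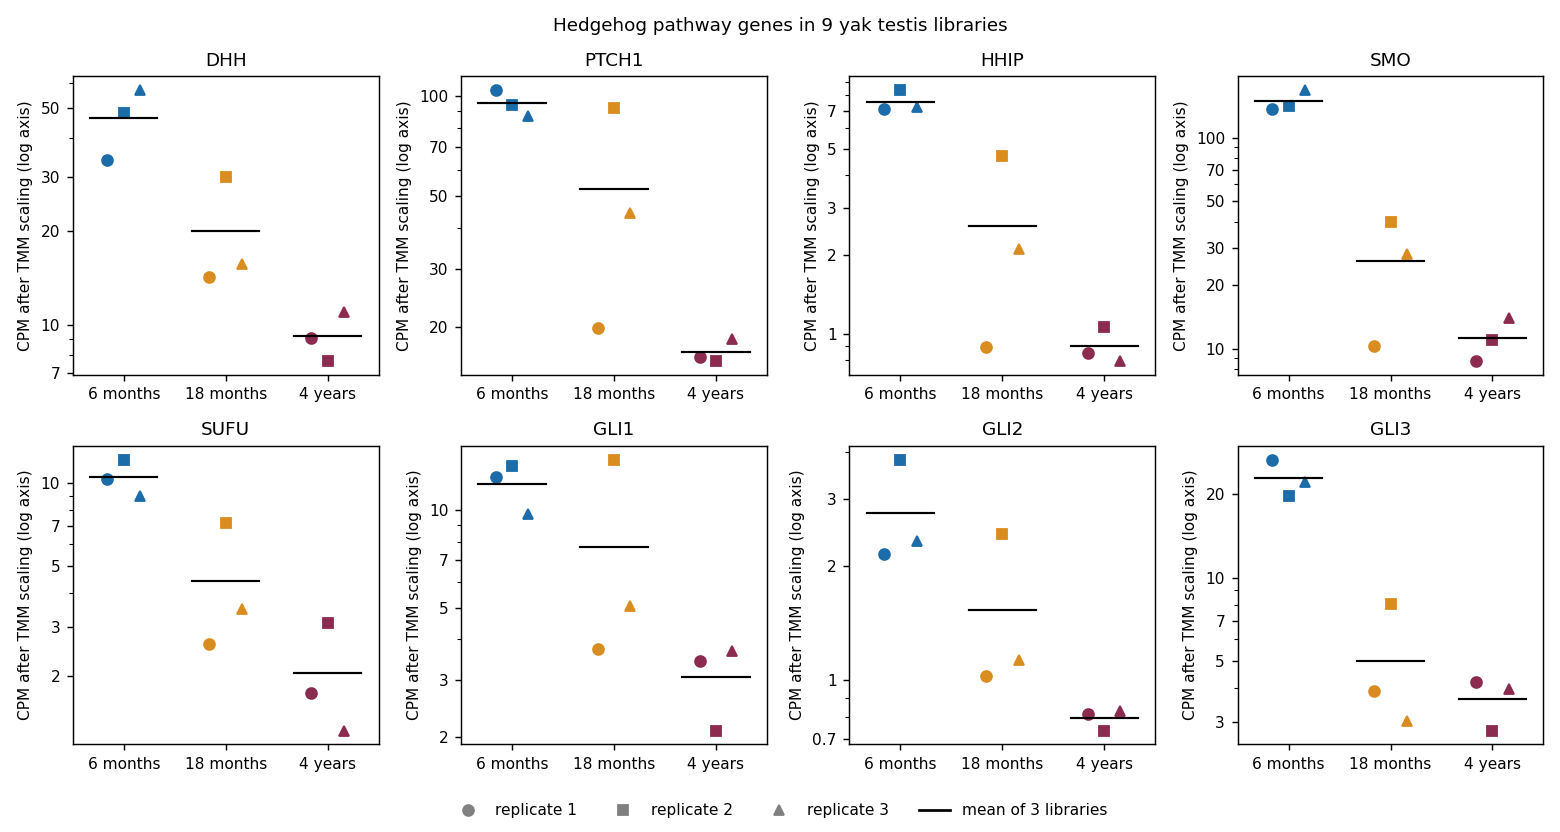
CPM (log axis) of each of the 8 genes in the 9 libraries by age. Each point is 1 animal, its shape gives the replicate number, and the bar is the mean of 3. The 4-year points lie below the 6-month points in all 8 panels, and the 18-month square (replicate 2) is the highest 18-month point in each.

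The 18-month animals differed most among themselves. On a log2 scale running from 0 at the 6-month mean to 1 at the 4-year mean, replicate 1 stood between 0.72 (DHH) and 1.03 (SMO). Replicate 2 stood between -0.13 (GLI1) and 0.57 (GLI3), with PTCH1 at 0.02 and GLI2 at 0.08. Replicate 3 lay between 0.44 (PTCH1) and 1.09 (GLI3). Replicate 2 was thus nearest the 6-month animals for all 8 genes. The same library had the lowest summed spermatid marker level of the 18-month group, at 151 CPM against 984 in replicate 3 and 2457 in replicate 1. It also had the highest summed Sertoli (4709 CPM), interstitial (965 CPM), peritubular (916 CPM) and Leydig (5931 CPM) marker levels of that group, and their part in the differences between these animals was not tested.

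Cell-type markers moved with age beside the 8 genes. Summed Sertoli markers ran from 8797 to 10727 CPM at 6 months, 1680 to 4709 CPM at 18 months and 1399 to 1458 CPM at 4 years, and 11 of 16 tested markers were lower at 4 years than at 6 months and 1 was higher. INHA was the most abundant of them at 6 months (4099 CPM on average) and CLU at 4 years (812 CPM). Interstitial markers went from 2777 to 3590 CPM at 6 months to 242 to 265 CPM at 4 years, with 10 of 10 lower. By CPM COL3A1 led them at each age. By mean FPKM DCN was above COL3A1 at 6 months (411.165 against 149.658) and at 4 years (23.023 against 16.423). At 18 months COL3A1 led on both scales. Leydig markers, led by INSL3 at each age, went from 15303 to 21939 CPM to 2523 to 4459 CPM, with 8 of 10 lower and 1 higher. Peritubular markers had 486 to 589 CPM at 6 months and 229 to 262 CPM at 4 years, with 3 of 8 lower and 1 higher. By CPM MYLK was the most abundant of them at 6 months and ACTA2 at 4 years. By FPKM DES (47.2) was above MYLK (23.5) at 6 months. Spermatid markers rose from 1.23 to 3.25 CPM to 2525 to 3402 CPM, with 8 of 8 higher, and so did 8 of 8 meiotic markers, led by STAG3 at each age. By CPM TNP1 was the most abundant spermatid marker at 6 and 18 months and PRM2 at 4 years. By FPKM TNP1 (2305) was above PRM2 (1767) at 4 years. How far these shifts in marker level account for the change of the 8 genes was not tested.

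To set the 8 genes against the markers of the cells known to send or receive the signal, 13 log2 ratios were taken within each library, where scaling cancels. Each was tested across the 3 ages by an exact permutation test over the 280 partitions of the 9 libraries, whose smallest p is 0.00357. After Benjamini-Hochberg adjustment over the 13 ratios, 7 passed. DHH over the summed Sertoli markers did not: it stood at -8.02, -7.64 and -7.56 at 6 months, -6.88, -7.29 and -7.32 at 18 months and -7.27, -7.57 and -7.06 at 4 years (exact permutation p = 0.0607, adjusted 0.0718). The 4-year and 6-month libraries overlapped. Over only the Sertoli transcription factors SOX9, WT1 and GATA4, a denominator chosen after the data had been seen, the mean log2 ratio was -2.15 ± 0.21 at 6 months, -1.91 ± 0.27 at 18 months and -2.18 ± 0.29 at 4 years (SD, n = 3, exact permutation p = 0.482). The DHH ratio to the sum of these 3 genes therefore varied about as much among animals of 1 age as between ages. All 3 fell, but not alike. SOX9 went from 45.2, 46.5 and 45.8 CPM at 6 months to 20.3, 16.2 and 15.9 CPM at 4 years. GATA4 went from 99.9, 118 and 131 CPM to 15.8, 12.3 and 10.7 CPM. The ratio to the sum thus does not describe DHH against each of them alone.

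PTCH1 fell less than the interstitial markers and more than the peritubular ones. Its log2 ratio to the interstitial list was -5.10, -5.07 and -5.00 at 6 months, -3.78, -3.39 and -3.57 at 18 months and -3.91, -4.07 and -3.85 at 4 years (exact permutation p = 0.00357, adjusted 0.0155). The 3 ages did not overlap, and 6 months was lowest. To the peritubular list it was -2.22, -2.65 and -2.60, then -3.55, -3.31 and -3.56, then -4.02, -3.86 and -3.68 (exact permutation p = 0.00357, adjusted 0.0155), again without overlap but with 6 months highest. Against the Leydig list the mean log2 ratio of PTCH1 was -7.53 ± 0.16, -6.63 ± 0.55 and -7.75 ± 0.57 (SD, n = 3, exact permutation adjusted p = 0.0619), and the difference from 6 months to 4 years, -0.23, turned to 0.3 when the list was summarised by its mean log2 CPM. The direction of PTCH1 relative to a receiving cell type thus differed with the list.

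GLI1 and HHIP are the other known targets among the 8. GLI1 over interstitial markers rose by 1.62 on the log2 scale from 6 months to 4 years (exact permutation adjusted p = 0.0464), and HHIP over them by 0.54 (exact permutation adjusted p = 0.0464). HHIP over peritubular markers fell by 1.94 (exact permutation adjusted p = 0.0371). GLI1 over peritubular markers had a difference of -0.86 (exact permutation adjusted p = 0.0718), and neither GLI1 nor HHIP over Leydig markers passed (exact permutation adjusted p = 0.132 and 0.104). Leaving out single libraries ended the call of GLI1 over interstitial markers in 7 of 9 cases and that of HHIP over them in 7 of 9. The call of HHIP over peritubular markers was lost without 18-month replicate 2 or 4-year replicate 1, whereas those of PTCH1 over interstitial and peritubular markers were kept in all 9 cases.

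The balance among the 8 genes also shifted. PTCH1 over SMO, as a log2 ratio of CPM within a library, was -0.39, -0.59 and -0.95 at 6 months, 0.95, 1.22 and 0.65 at 18 months and 0.89, 0.51 and 0.40 at 4 years (exact permutation p = 0.00714, adjusted 0.0232). Both older groups lay above the 6-month one, since SMO fell further than PTCH1. GLI1 over GLI3 was -1.08, -0.53 and -1.19 at 6 months, -0.06, 0.83 and 0.73 at 18 months and -0.28, -0.42 and -0.10 at 4 years (exact permutation p = 0.00357, adjusted 0.0155). This ratio of activator to repressor transcript was lowest at 6 months, with no overlap with either older age, and its call was lost without 6-month replicate 1 or 3 or without 4-year replicate 1. HHIP over PTCH1 did not pass (exact permutation adjusted p = 0.0619).

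**Figure D4:**
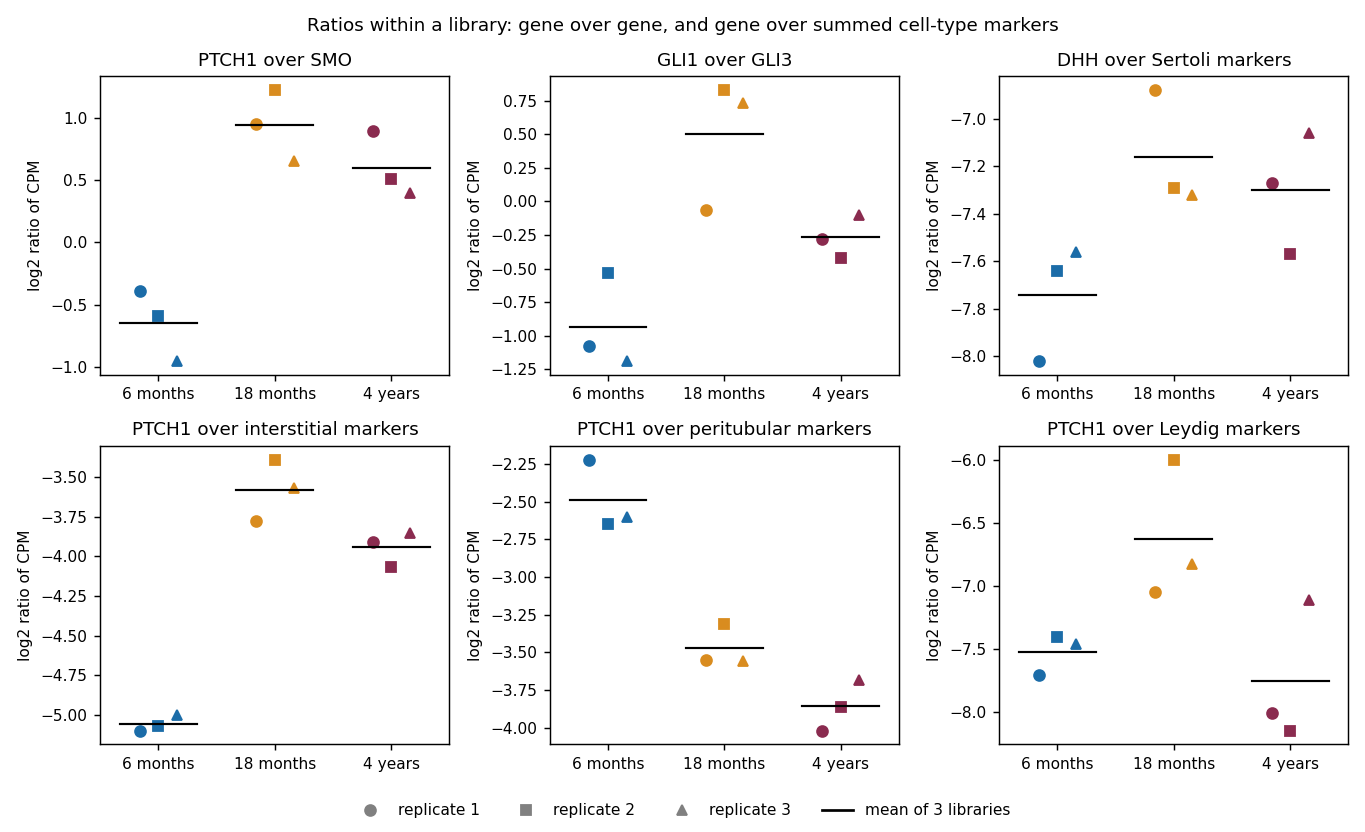
Log2 ratios of CPM within each library for 6 of the 13 ratios, by age. Points are animals, shapes give the replicate number and bars are means of 3. PTCH1 over SMO, GLI1 over GLI3 and PTCH1 over interstitial markers are lowest at 6 months, PTCH1 over peritubular markers is highest there, and DHH over Sertoli markers overlaps between 6 months and 4 years.

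Further genes of the pathway were counted from 5 lists by role, of which 80 of 85 genes were tested. At 4 years against 6 months 31 of the 80 were higher, 24 were lower and 25 did not pass, with a median log2 change of 0.27 against -2.43 for the 8 genes. At 18 months against 6 months the counts were 30, 24 and 26, where 32.7% of all tested genes were higher and 27.1% lower. No gene of any list passed from 18 months to 4 years in edgeR. The genes that the deposited table itself annotates to hedgehog signalling, without the 8, gave 20 higher, 15 lower and 14 not passed of 49 tested at 4 years. Of all tested genes, 36.7% were called higher and 37.2% lower in that comparison.

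Of the 6 co-receptors, most of which present ligand to Patched, 4 were lower at 4 years, 0 higher and 2 not passed. GAS1 stood at 16.0, 21.3 and 20.4 CPM at 6 months, 1.09, 5.10 and 3.40 at 18 months and 0.987, 1.12 and 1.74 at 4 years, a log2 change of -3.90 ± 0.54 by 4 years (adjusted p = 0.000266). CDON changed by -2.91 ± 0.48 (adjusted p = 0.000649), GPC3 by -2.27 ± 0.44 (adjusted p = 0.00157) and BOC by -1.60 ± 0.37 (adjusted p = 0.00367). These 4 also fell at 18 months, when LRP2 and GPC5 rose. LRP2, a large endocytic receptor that also binds hedgehog ligands, was at 1.65, 2.73 and 1.51 CPM at 6 months, 4.81, 63.4 and 34.9 at 18 months and 2.76, 1.98 and 1.11 at 4 years. All 18-month libraries were above all others for LRP2, though they differed widely (log2 change 4.13 ± 0.83 from 6 months, adjusted p = 0.00276). GPC5 rose by 1.82 ± 0.37 at 18 months (adjusted p = 0.00274), and its symbol stands on 2 identifiers, so its identity is less certain.

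Genes that lipidate, release or carry the ligand were divided. HHAT, which attaches the palmitate group to hedgehog proteins, was at 2.28, 1.99 and 2.61 CPM at 6 months, 64.7, 15.5 and 38.0 at 18 months and 64.1, 53.4 and 46.1 at 4 years. The groups did not overlap for HHAT between 6 months and either older age (log2 change 4.57 ± 0.50 at 4 years, adjusted p = 9.61e-05). DISP3 rose by 4.77 ± 0.80 (adjusted p = 0.000681) and DISP2 by 4.63 ± 1.02 (adjusted p = 0.00295), both members of the Dispatched family. The secreted carriers SCUBE2 and SCUBE1 changed by -2.47 ± 0.39 (adjusted p = 0.00053) and -1.26 ± 0.25 (adjusted p = 0.00186). At 18 months 4 of the 7 were higher, SCUBE3 being the fourth, and the same SCUBE1 and SCUBE2 were lower. DISP1, the member of its family best known for releasing hedgehog ligands, had a log2 change of 0.39 ± 0.19 by 4 years (adjusted p = 0.1).

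Among 27 regulators of GLI proteins, 9 were higher, 8 lower and 10 not passed at 4 years against 6 months, with a median log2 change of 0.09. The kinase STK36 rose by 2.68 ± 0.26 (adjusted p = 6.67e-05), the ubiquitin ligase SMURF1 by 3.34 ± 0.36 (adjusted p = 8.71e-05) and CUL3, the scaffold of the ligase that degrades GLI proteins, by 2.63 ± 0.30 (adjusted p = 0.000114). PRKACB, a catalytic subunit of the protein kinase A that primes GLI proteins for processing, fell by 2.14 ± 0.25 (adjusted p = 0.000126). At 18 months the counts were 8, 6 and 13.

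Of 26 genes of the primary cilium, where the signal is handled, 17 were higher, 4 lower and 5 not passed at 4 years, with a median log2 change of 1.11. IFT140 rose by 3.89 ± 0.36 (adjusted p = 5.31e-05), IQCE by 3.34 ± 0.37 (adjusted p = 9.99e-05) and IFT122 by 1.94 ± 0.20 (adjusted p = 8.1e-05). Intraflagellar transport genes also serve the sperm flagellum, and the summed spermatid markers rose at the same time, as given above. Their part in these rises was not tested. The 4 that fell were EVC2, EVC, RAB23 and CC2D2A. EVC2 and EVC form the ciliary complex that binds SMO, and EVC2 stood at 64.8, 61.4 and 41.4 CPM at 6 months, 3.91, 8.83 and 4.28 at 18 months and 2.72, 3.15 and 2.14 at 4 years. No older library came near the 6-month level of EVC2, whose log2 change was -4.38 ± 0.39 at 4 years (adjusted p = 4.63e-05). EVC changed by -2.10 ± 0.34 (adjusted p = 0.000529), RAB23, a small GTPase that restrains the pathway, by -1.29 ± 0.28 (adjusted p = 0.00277) and CC2D2A, of the ciliary transition zone, by -1.43 ± 0.44 (adjusted p = 0.0152). At 18 months 13 of the 26 were higher and 5 lower, the same 4 and WDR19.

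Of 14 tested genes that hedgehog signalling is known to induce in some tissues, 6 were lower, 2 higher and 6 not passed at 4 years. The lower ones were CYP11A1, MYCN, NR5A1, CCND2, BCL2 and BMP4, and the higher ones were FOXM1 and GREM1. CYP11A1, the first enzyme of steroid synthesis, changed by -5.27 ± 0.31 (adjusted p = 3e-05) and NR5A1, a steroidogenic transcription factor, by -3.49 ± 0.40 (adjusted p = 0.000112). Both are also on the Leydig marker list. MYCN, a growth-promoting factor, changed by -5.09 ± 0.56 (adjusted p = 9.81e-05), from 40.6, 66.5 and 73.1 CPM at 6 months to 2.35, 0.973 and 1.98 CPM at 4 years. The cell-cycle factor FOXM1 rose by 5.04 ± 0.52 (adjusted p = 8e-05).

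**Figure D5:**
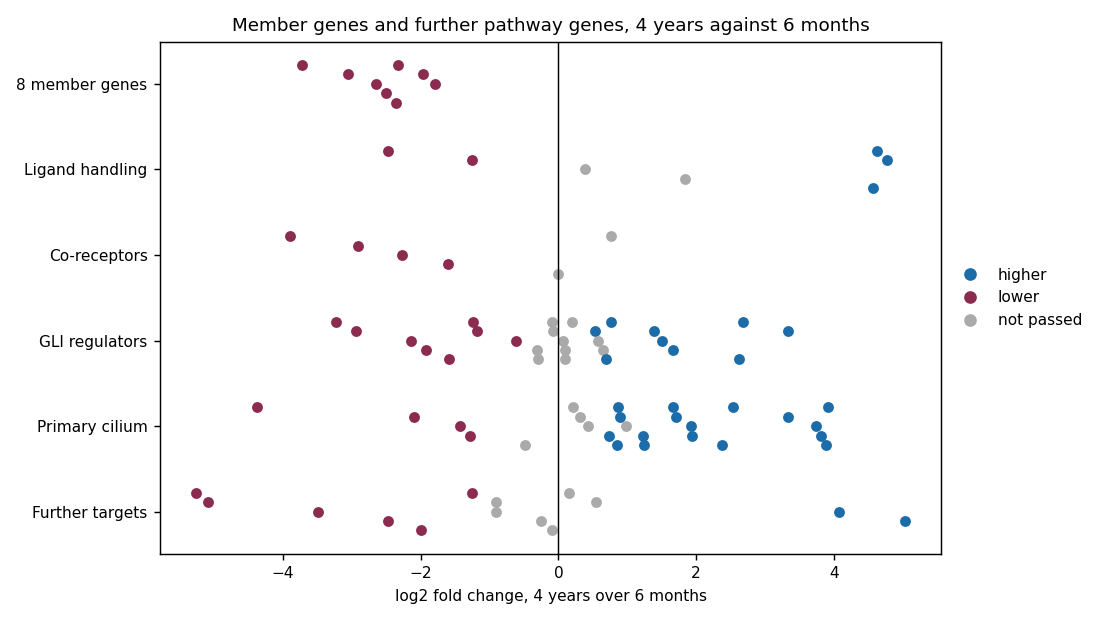
Log2 fold change from 6 months to 4 years of the 8 genes (top line) and of the tested genes of the 5 further lists. Each point is 1 gene, coloured by its edgeR call at an adjusted p under 0.05. The 8 genes all lie left of 0, whereas 17 of 26 primary cilium genes were called higher and the other lists hold calls on both sides or, for the co-receptors, 4 lower and 0 higher.

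Tested genes that carry a symbol were compared with each of the 8 by their log2 profile over the 9 libraries. The distance was the root mean square difference after centring. GAS1, the co-receptor described above, was the nearest of these genes to SMO (0.13), followed by PTK7 (0.15) and TET2 (0.16). Nearest to DHH were EML1 and FSBP (both 0.14) and C28H1orf198 (0.18). PTCH1 was followed most closely by GAPDH (0.12), NCALD (0.13) and FLNA (0.14), and HHIP by NPC2 (0.08), EPHX2 and GNAS (both 0.15). For SUFU these were RHOF (0.19), AKAP5 (0.22) and NTHL1 (0.23). GLI1 had CFDP2 (0.19), ZBTB7A and KLF16 (both 0.23), GLI2 had NUBP2 (0.15), TLE1 (0.16) and ZSWIM4 (0.17), and GLI3 had OSMR and NFIA (both 0.20) and AFAP1L2 (0.21). The number of genes within 0.3 of a profile ran from 38 for GLI3 to 331 for GLI2. Among themselves the 8 lay further apart, from 0.33 (GLI1 and GLI2) to 1.02 (SMO and GLI2), so none was among the 3 nearest of another.

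The same libraries also gave circular RNAs (circRNAs), loops joined by back-splicing of a transcript, which the choice of the 8 genes did not use. Of 73679 circRNAs in the table, 28 were assigned to the 8 genes: 12 to GLI3, 6 to HHIP, 3 each to PTCH1 and SUFU, 2 to GLI2 and 1 each to SMO and GLI1. None was listed for DHH. Only 2 had enough reads to be tested, both from GLI3 on chromosome 4 of the files' coordinates. The circRNA spanning 78959877 to 78970079, 555 bases after splicing of annotated exons, had 23, 10 and 11 reads at 6 months, 2, 35 and 2 at 18 months and 3, 13 and 14 at 4 years. The one spanning 78985523 to 78988990, 469 bases of annotated exons, had 19, 14 and 11 reads at 6 months, 3, 5 and 4 at 18 months and 4, 14 and 4 at 4 years. The first overlapped between all ages, and the second was lower in every 18-month library than in any 6-month one.

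Neither GLI3 circRNA passed in edgeR in any comparison, whereas 5.26% of the 3877 tested circRNAs passed at 18 months against 6 months, 21% at 4 years against 6 months and 0% between the older ages. The second had a log2 change of -2.06 ± 0.71 at 18 months (unadjusted p = 0.0154, adjusted p = 0.112), the lowest of the adjusted values. Summed over its 12 circRNAs, GLI3 gave 68.6 ± 11.8 back-splice reads per 1000 estimated counts of the gene at 6 months, 124 ± 68.5 at 18 months and 234 ± 122 at 4 years (SD, n = 3). The means were in ascending order, but 18-month values from 59.3 to 196 overlapped both other ages (exact permutation p = 0.0714, adjusted 0.143 over 2 genes). For HHIP the values were 106 ± 35.4, 274 ± 116 and 250 ± 250 (SD, n = 3, exact permutation p = 0.414). Replicate 2 of the 18-month group gave 56 of the 76 HHIP back-splice reads of its age and 46 of the 64 of GLI3. The 2 GLI2 circRNAs, with 9 reads in all, were seen only at 4 years. They are assigned to different GLI2 identifiers, and both end at position 72719919 of chromosome 2 in the files' coordinates.

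The authors' deposited table of genes that differ between 6 months and 4 years lists all 8 genes as higher at 6 months, with FDR values up to 0.000859 (GLI2). Their deposited table for 6 and 18 months lists SMO, GLI3 and HHIP. DHH and SUFU, called here from counts after TMM scaling, are not in it. The log2 ratios of that table are of mean FPKM, an unlike measure, and HHIP is listed at -1.1. Mean FPKM went from 9.62 at 6 months to 5.23 at 18 months for DHH and from 2.03 to 1.36 for SUFU. The reason for their absence was not tested. None of the 8 is in the authors' deposited table for 18 months and 4 years, which holds 247 genes.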

How the data were processed

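Per the labels' protocols, testis tissue was frozen after castration, ribosomal RNA was removed from total RNA, and libraries were sequenced paired-end. Genome build UMD3.1 is named in the submitters' processing notes, along with StringTie 1.3.4, HISAT2 2.1.0 and fastp 0.18.0, with no role for any. Neither the counting program, nor its use of strand, nor the circRNA caller is given in the sources used, so overlapping genes may share reads. In the supplied yak RefSeq annotation (Bosgru_T2T1.0), PTCH1, GLI2, GLI3 and HHIP have an overlapping gene. That annotation is of another assembly than the named build UMD3.1, so the genes as counted may overlap otherwise.

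Per the file headers, each gene has an estimated count and an FPKM value per library, both as deposited by the authors. Counts of 3137 genes were not whole and were rounded here. For circRNAs the authors deposited a count of back-splice reads, 119786 to 227150 per library. Whether its coordinates follow the listed build was not settled. The authors' deposited comparison tables hold mean FPKM, log2 ratios, p-values and FDR, and were only read for the 8 genes. The small RNA tables were not used.

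All 9 gene libraries entered 1 fit in edgeR 4.0.16 under R 4.3.3, with age as the factor (filterByExpr, TMM, glmQLFit, glmQLFTest), with Benjamini-Hochberg adjustment over all genes tested and calls at 0.05. SE is the log2 change divided by the square root of F. circRNAs were fitted likewise. Ratios used exact permutation tests, two-sided in effect since the between-age sum of squares was tested. The fits were tested on simulated data, where 98 of 16542 genes changed by 1 on the log2 scale at 4 years and 96 by 2. At 4 years against 6 months, 6.12% of the changes of 1 and 74% of those of 2 were called. Against 18 months these were 8.16% and 69.8%. In the data 12372 of 16742 genes were called at 4 years against 6 months, far more than were changed in the simulation. The adjustment over all genes was thus stricter in the simulation, and its rates do not describe that comparison. The simulation also gave genes of like level the same spread. A gene that did not pass may still differ.

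All 8 genes were named in every comparison. Per pathway list the 4 genes with the smallest p across the ages were named, and every gene where 5 or fewer moved in a direction. DISP1, CCND2, BCL2, BMP4, SHH and IHH were named after their values were seen. The 8 genes, the lists and the tests were chosen with earlier results of these data known. Replicate numbers were not treated as pairs. Same-numbered libraries correlated at -0.14 to 0.10 in their deviations from the age means, and different-numbered ones at -0.16 to 0.14. With so few libraries this cannot exclude shared handling. Alternatives were other scalings (DESeq2 1.42.0 included), filters, limma-voom (limma 3.58.1), a fit of only the ages compared, a replicate block, and leaving out each library. A gene of the pathway lists is not reported here. No sequences are printed, since none of these genes' sequences were in the files used here.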

Additional observations from a re-analysis of the deposited data

How the results depend on the processing

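The number of the 8 genes lower at 4 years than at 6 months was 8 under every alternative. At 18 months against 6 months it was 5, but 2 with library size alone, 3 with only the 2 ages compared, 4 with upper-quartile factors, and 3 to 8 when single libraries were left out. From 18 months to 4 years it was 0, but 2 with DESeq2 and 0 to 6 with single libraries left out. Of the 13 ratios 7 passed, but 11 with the mean log2 CPM of a marker list, and 3 to 8 with single libraries left out. With that mean, PTCH1 over Leydig markers reversed to 0.3. The causes were not tested. With a replicate block the counts of the 8 genes were 5, 8 and 0, so the block ended no call in number, and the circRNA counts stayed at 0 under it and all other alternatives run. All log2 changes of the 8 genes stayed below 0 except that of GLI3 from 18 months to 4 years without 18-month replicate 2 (0.07). Scaling by library size moved the median log2 change of all genes most at 18 months against 6 months, from 0.02 to 0.43. With 3 animals per age and no statement on technical repeats, p-values measure the spread between these animals only.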

Other observations

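Markers of other cells in the testis moved in several directions from 6 months to 4 years in edgeR. Of 7 endothelial markers 6 were lower and 1 was higher, and their summed level went from 205 to 267 CPM to 164 to 171 CPM. The marker that was higher was VWF, with a log2 change of 2.96 ± 0.34 (SE). By CPM VWF was the most abundant of the 7 at 4 years (93.5 ± 0.523 CPM, SD, n = 3), and KDR was at 6 months (104 ± 15.9 CPM). By FPKM PECAM1 (9.81) was above KDR (9.11) at 6 months. Among 8 macrophage markers 3 were higher, 4 lower and 1 did not pass. Spermatogonial markers had 4 of 8 higher and 2 lower, and their summed level went from 213 to 294 CPM to 482 to 537 CPM. Of 7 markers of the rete testis and epididymis only 3 were tested, with 1 higher, 1 lower and 1 not passed, and a summed level of 22.5 to 33.2 CPM at 6 months and 93.5 to 99.1 CPM at 4 years. By CPM the most abundant of the 3 was ESR1 at 6 months (19.2 CPM on average) and EPCAM at 4 years (91.9 CPM). By FPKM KRT19 (3.238) was above ESR1 (3.005) at 6 months. The part of all these cells in the levels of the 8 hedgehog genes was not tested.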
